A study of Mus musculus with 7 samples.

Results

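Clade A serpins are secreted proteins of the serine protease inhibitor superfamily, and hepatocytes make several of them in bulk for the blood plasma. The 9 genes described here are Serpina1a, Serpina1b, Serpina1c, Serpina1d and Serpina1e, the mouse alpha-1-antitrypsin paralogs, with Serpina3k, Serpina3m, Serpina6 and Serpina10. They were chosen by name, and all 9 were among the 12151 gene symbols of the expression table. All 9 also stood among the 12105 genes tested, those with at least 1 CPM (a gene's reads scaled to library size) in at least 3 libraries.

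Messenger RNA was sequenced from hepatocytes isolated from mouse liver, in 4 libraries labelled ALAS1/2-KO and 3 labelled WT. The enzymes ALAS1 and ALAS2 start heme synthesis by making aminolevulinic acid. The ALAS1/2-KO group combined a Cre-inducible deletion of exons 4 and 5 of Alas1 with GalNAc-conjugated siRNA against Alas2, and its libraries carry the treatment label tamoxifen. The WT libraries carry the treatment label non, and the effects of deletion, siRNA and tamoxifen cannot be told apart. GalNAc is a sugar by which an siRNA is taken up into hepatocytes. The labels used here give no age, no sex and no promoter of the Cre, and they do not say that each library of a group is a separate animal. P-values therefore rest on the spread among these 7 libraries, which may be technical.

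Alas2 stood at 0.44 ± 0.26 CPM in ALAS1/2-KO libraries and 11.3 ± 5.2 CPM in WT libraries (SD, n = 4 and 3), while Alas1 stood at 322 ± 31.7 CPM in ALAS1/2-KO and 209 ± 109 CPM in WT. The value of the whole Alas1 gene does not check a deletion of 2 exons. The reads listed per library ran from 27933939 to 30195635 in ALAS1/2-KO and from 22916097 to 34048680 in WT, of which mitochondrial genes took 16.8 to 27.3% in ALAS1/2-KO and 31.9 to 43.2% in WT. The hepatocyte markers were all listed, 9 of 9, with a summed level of 73395 to 79636 CPM in ALAS1/2-KO and 114447 to 120814 CPM in WT, most of it albumin. The lower sum in ALAS1/2-KO does not describe the list, since 7 of the 9 had a positive log2 fold change (ALAS1/2-KO minus WT). The median was 0.29, and the 2 negative ones were Alb and Cyp2e1. Markers of other liver cells were present too. The 10 of 10 Kupffer cell and macrophage markers summed to 245 to 1566 CPM in ALAS1/2-KO and 961 to 1306 CPM in WT, the 9 of 9 endothelial markers to 79.8 to 356 CPM and 325 to 407 CPM, and the 9 of 9 stellate and fibroblast markers to 43.6 to 210 CPM and 189 to 339 CPM, each with ALAS1/2-KO given first. ALAS1/2-KO replicate 1 had the lowest of these 3 sums, with its Kupffer cell marker Clec4f at 51.0 CPM and at 139 to 291 CPM in the other ALAS1/2-KO libraries, and it also had the 16.8% mitochondrial reads given above. Clec4f was chosen for mention after its values were seen. The 2 of 6 cholangiocyte markers that were listed summed to 2.72 to 5.36 CPM and 12.1 to 21.1 CPM, the 3 of 8 lymphocyte markers to 0.605 to 3.05 CPM and 4.49 to 7.79 CPM, and the 4 of 6 erythroid markers to 2.75 to 7.39 CPM and 11.3 to 41.3 CPM, again with ALAS1/2-KO first. Of the markers that were listed, 0 had a count of 0 in any library, and the lowest sum of each of these 6 lists belonged to an ALAS1/2-KO library. Their part in the results below was not tested. In such bulk samples, fewer cells of a type and less RNA per cell cannot be told apart.

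A serpin inhibits a protease by bait: the protease cuts the reactive centre loop, an exposed stretch near the end of the protein, and the serpin then snaps shut and traps it. The residue just before the cut bond largely decides which protease is caught. In mice the single human alpha-1-antitrypsin gene is replaced by a row of near-identical paralogs whose loops differ, and alpha-1-antitrypsin is known for shielding the lung from neutrophil elastase. Not every clade A serpin is an inhibitor: Serpina6, corticosteroid-binding globulin, uses the same fold to carry glucocorticoids in plasma. Serpina3k is contrapsin, an inhibitor of trypsin-like proteases in mouse plasma, Serpina3m is its close paralog, and Serpina10 is the protein Z-dependent protease inhibitor, which acts on coagulation factors Xa and XIa.

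The reactive centre loops of the 5 Serpina1 paralogs are shown because the loop sets which protease each of them can trap. Each line gives 30 bases of the coding strand, 5′ to 3′, with the codon of the residue before the cut bond in capitals. The windows were read from the GENCODE M21 transcripts of mm10 and lie on the minus strand, at chr12:103853771-103853800 for Serpina1a, chr12:103728338-103728367 for Serpina1b, chr12:103895108-103895137 for Serpina1c, chr12:103763776-103763805 for Serpina1d and chr12:103947114-103947143 for Serpina1e.
Serpina1a: caaatggttcctATGtctatgccccctatc
Serpina1b: gaagccgttcctATGtctatgccccctatc
Serpina1c: ctagccgttcctTATtctatgccccctatc
Serpina1d: caagtcgctactTATtctatgccccctatc
Serpina1e: caaggcggttttTTGtctatgccccctatc
Serpina1a and Serpina1b share their capital codon, Serpina1c and Serpina1d share another, and Serpina1e has a codon of its own. Relative to Serpina1a, the window differed at 4 bases in Serpina1b and at 7 bases in each of the other 3, and 11 of the 30 positions differed in at least 1 paralog. Over the aligned coding sequences the 5 paralogs were 96.3 to 98.5% identical, with Serpina1a and Serpina1c the closest pair.

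Part of the proximal promoters is shown because the 5 paralogs share this stretch almost letter for letter. Each line gives the 100 bases, on the gene's own strand, in which the 5 promoters were most alike before their annotated starts, with the positions that differ in any of them in capitals. They come from RefSeq on GRCm38.p6, minus strand, at chr12:103863646-103863745 for Serpina1a, chr12:103738221-103738320 for Serpina1b, chr12:103904983-103905082 for Serpina1c, chr12:103773655-103773754 for Serpina1d and chr12:103956981-103957080 for Serpina1e.
Serpina1a: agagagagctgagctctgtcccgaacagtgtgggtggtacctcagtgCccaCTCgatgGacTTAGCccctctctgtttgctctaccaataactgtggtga
Serpina1b: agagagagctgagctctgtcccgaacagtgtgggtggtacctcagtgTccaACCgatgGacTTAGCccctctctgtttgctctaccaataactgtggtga
Serpina1c: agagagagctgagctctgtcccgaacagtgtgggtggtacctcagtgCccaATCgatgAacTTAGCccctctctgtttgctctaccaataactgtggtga
Serpina1d: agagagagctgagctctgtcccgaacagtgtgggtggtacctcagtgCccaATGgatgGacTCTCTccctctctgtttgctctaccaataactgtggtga
Serpina1e: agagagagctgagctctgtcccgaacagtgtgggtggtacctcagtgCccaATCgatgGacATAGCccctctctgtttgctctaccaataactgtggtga
Of the 100 positions 90 were the same in all 5, which follows in part from choosing the most alike stretch and does not describe the whole promoter. Counted from the annotated start, the stretch began at -126, -131, -132 and -121 in Serpina1a to Serpina1d and at -183 in Serpina1e. Relative to Serpina1e, Serpina1a and Serpina1c differed at 2 bases each, Serpina1b at 3 and Serpina1d at 6. Promoter entries matched 5 of the 9 serpins. Motifs were searched on both strands of each promoter, from 250 bases before to 50 bases after the annotated start, and in the 32851 promoters of this length in the table. TTGCNNAA, a C/EBP motif, was in 4 of the 5 promoters and in 10.8% of all promoters. TGTTCT, a core of the glucocorticoid receptor motif, was in 5 of 5 and in 19.0% of all. STAT (TTCNNNGAA, 8.3% of all promoters), TATA box (TATAAA, 13.6%) and HNF4 (CAAAGTC, 4.44%) motifs were in 0 of the 5, and none of the matches overlapped another. Counted from the annotated start, TGTTCT lay at -167, -174, -173, -162 and -224 in Serpina1a to Serpina1e. The C/EBP match lay at -161 in Serpina1b, -149 in Serpina1d and -211 in Serpina1e, but after the start, at 25, in Serpina1a. Promoters of near-identical paralogs are not separate cases, so these counts cannot be set against the shares of all promoters as if they were. A match describes letters, not a site in use.

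All 9 genes lie in 1 cluster of 780 kb on chromosome 12 (mm10, GENCODE M21). Serpina10 (ENSMUSG00000061947.10, 103614786 to 103631444), Serpina6 (ENSMUSG00000060807.7, 103646630 to 103657212), Serpina1b (ENSMUSG00000071178.11, 103728156 to 103830373), Serpina1d (ENSMUSG00000071177.4, 103763594 to 103773592), Serpina1a (ENSMUSG00000066366.14, 103853589 to 103863562), Serpina1c (ENSMUSG00000079015.2, 103894926 to 103904887) and Serpina1e (ENSMUSG00000072849.10, 103946931 to 103958975) run on the minus strand. Serpina3k (ENSMUSG00000058207.6, 104338486 to 104346144) and Serpina3m (ENSMUSG00000079012.11, 104338486 to 104394257) run on the plus strand. The annotated gene of Serpina1b contains all 9999 bases of Serpina1d, and that of Serpina3m contains the 7659 bases of Serpina3k. The share of 50-base stretches found in no other gene was counted in 1 transcript per gene, the one with the longest coding sequence. It was 25.8% for Serpina1c, 32.6% for Serpina1a, 49.1% for Serpina1d, 64.2% for Serpina1b and 64.4% for Serpina1e. For the other members it was 80.9% for Serpina3m, 86% for Serpina3k, 98.1% for Serpina10 and 100% for Serpina6. The sources used here do not say how reads that fit several of these genes were assigned, so levels of single Serpina1 paralogs, Serpina1a and Serpina1c above all, are uncertain in a way that Serpina6 and Serpina10 are not.

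Of the 9 serpins, 1 rose and 1 fell in ALAS1/2-KO hepatocytes. Serpina6, the glucocorticoid carrier, rose 2.23-fold, and Serpina1e, the alpha-1-antitrypsin paralog with the highest level, fell to 0.622 of its WT level. The other 7 did not pass the test, which was limma with Benjamini-Hochberg adjustment at an adjusted p of 0.05. Across all 12105 genes the same test called 5.1% in either direction, 2.91% higher and 2.19% lower. The libraries of the 2 groups did not overlap for 4 of the 9 serpins, 3 higher and 1 lower in ALAS1/2-KO, and for 22.7% of all genes tested. An unadjusted limma p under 0.05 was found for 4 of the 9 and for 23.7% of all genes. The median log2 fold change (ALAS1/2-KO minus WT) was 0.10 over the 9 serpins and -0.02 over all genes.

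**Figure D1:**
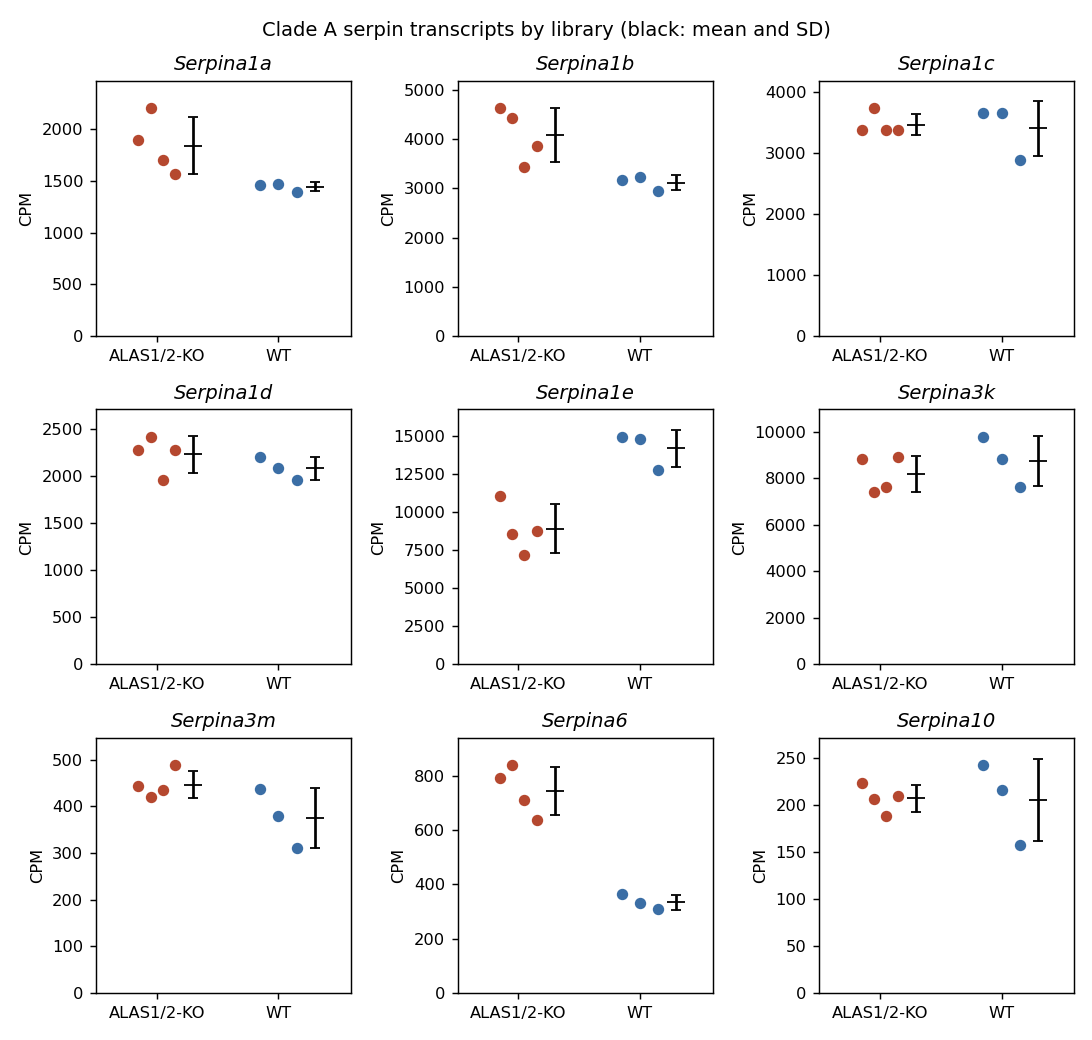
CPM of each serpin in every library (y axes start at 0; ALAS1/2-KO in red, 4 libraries; WT in blue, 3 libraries; black bars are the mean ± SD). The 4 Serpina6 values of ALAS1/2-KO, 638.6 to 839.6 CPM, lie above the WT values of 308.2 to 364.1 CPM, and the Serpina1e values of ALAS1/2-KO, 7216 to 11099 CPM, lie below the WT values of 12788 to 14961 CPM.

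Serpina6 encodes corticosteroid-binding globulin, which carries most glucocorticoid in the blood. It stood at 792.6, 839.6, 712.5 and 638.6 CPM in ALAS1/2-KO replicates 1 to 4, against 364.1, 329.8 and 308.2 CPM in WT replicates 1 to 3. Every ALAS1/2-KO library was above every WT library, and the lowest of them was still well clear of the highest WT value. The means were 745.8 ± 88.7 CPM in ALAS1/2-KO and 334.1 ± 28.2 CPM in WT (SD, n = 4 and 3). Serpina6 had a log2 fold change of 1.15 (SE 0.13, limma adjusted p = 0.00349), and the 95% interval of its fold ran from 1.82 to 2.72. By p its rank among the 12105 genes was 37. An exact permutation test of the log2 values, two-sided and over 35 regroupings, gave p = 0.0286, the smallest it can give. Without ALAS1/2-KO replicate 1, the library that stood apart in its markers, Serpina6 was still higher in ALAS1/2-KO (limma adjusted p = 0.00332). Serpina6 remained called without each of the 7 libraries in turn and in the 11 other alternatives run, with log2 fold changes of 1.00 to 1.49.

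Relative to other transcripts of the same libraries the Serpina6 difference was of similar or larger size. The ratio of Serpina6 to Serpina10, its neighbour in the cluster, was 3.56, 4.07, 3.78 and 3.05 in ALAS1/2-KO and 1.51, 1.53 and 1.97 in WT. Per 1000 CPM of albumin, whose own level was lower in ALAS1/2-KO, Serpina6 had 14.2, 15.5, 14.3 and 11.9 CPM in ALAS1/2-KO and 3.88, 3.29 and 3.10 CPM in WT. Neither pair of ranges overlapped. Such ratios within a library do not depend on the library size used.

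Serpina1e had the highest level per kilobase of the alpha-1-antitrypsin paralogs in both groups. It stood at 11099, 8541, 7216 and 8790 CPM in ALAS1/2-KO replicates 1 to 4, against 14961, 14835 and 12788 CPM in WT replicates 1 to 3. The ALAS1/2-KO libraries were all below the WT libraries, with ALAS1/2-KO replicate 1 the nearest to them. The means were 8912 ± 1614 CPM in ALAS1/2-KO and 14194 ± 1220 CPM in WT (SD, n = 4 and 3). Serpina1e had a log2 fold change of -0.69 (SE 0.16, 95% interval -1.05 to -0.32, limma adjusted p = 0.0456). The exact two-sided permutation test gave p = 0.0571. The call was close to the threshold: it was kept without ALAS1/2-KO replicate 1 (limma adjusted p = 0.0135) and lost without any other single library (limma adjusted p of 0.0737 to 0.192), while the log2 fold change stayed between -0.80 and -0.59.

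Serpina1a and Serpina1b, which share the loop codon ATG, were the paralogs whose ALAS1/2-KO libraries all stood above the WT libraries. Serpina1b stood at 4628, 4431, 3427 and 3854 CPM in ALAS1/2-KO and 3178, 3241 and 2939 CPM in WT, a log2 fold change of 0.38 (SE 0.13, 95% interval 0.08 to 0.68). Serpina1a stood at 1893, 2204, 1707 and 1573 CPM in ALAS1/2-KO and 1464, 1474 and 1398 CPM in WT, a log2 fold change of 0.34 (SE 0.13, 95% interval 0.04 to 0.64). The groups did not overlap for either gene, but neither passed the test (limma adjusted p = 0.134 for Serpina1b and 0.169 for Serpina1a; exact permutation p = 0.0571 for each).

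Serpina1c and Serpina1d, which share the loop codon TAT, overlapped between the groups. Serpina1c stood at 3372, 3727, 3373 and 3377 CPM in ALAS1/2-KO and 3657, 3653 and 2884 CPM in WT. Its log2 fold change was 0.03, with a 95% interval of -0.24 to 0.31 (limma adjusted p = 0.89). Serpina1d stood at 2281, 2421, 1958 and 2277 CPM in ALAS1/2-KO and 2206, 2085 and 1966 CPM in WT, a log2 fold change of 0.10 with a 95% interval of -0.16 to 0.35 (limma adjusted p = 0.642). The 7 libraries do not exclude differences within these intervals.

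Because the 5 paralogs can share reads, their sum was also taken. It was 23273, 21323, 17682 and 19871 CPM in ALAS1/2-KO libraries and 25466, 25287 and 21974 CPM in WT libraries, or 20537 ± 2359 CPM against 24243 ± 1966 CPM. The ranges overlapped, with the highest ALAS1/2-KO library above the lowest WT library. Without Serpina1e the other 4 summed to 11626 ± 1046 CPM in ALAS1/2-KO and 10048 ± 747 CPM in WT. As a share of all listed reads, the 5 together made up 2.28 ± 0.36% in ALAS1/2-KO and 2.12 ± 0.09% in WT, and as a share of the reads outside mitochondrial genes 2.98 ± 0.29% and 3.42 ± 0.17%, ALAS1/2-KO first. The direction of the sum thus depended on whether the mitochondrial reads were counted in the total.

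The make-up of the sum differed more than its size. Serpina1e was 47.7, 40.1, 40.8 and 44.2% of it in ALAS1/2-KO and 58.8, 58.7 and 58.2% in WT, and the WT libraries lay within 1 percentage point of each other. Serpina1b was 19.9 ± 0.66% of the sum in ALAS1/2-KO and 12.9 ± 0.45% in WT. Serpina1a was 9.01 ± 1.2% against 5.98 ± 0.33%, Serpina1d 10.9 ± 0.76% against 8.62 ± 0.35%, and Serpina1c 17 ± 1.9% against 14 ± 0.74%. Shares of a sum are tied to each other: where that of Serpina1e is lower, those of the others together must be higher. In CPM, Serpina1c and Serpina1d overlapped between the groups, with log2 fold changes of 0.03 and 0.10. Serpina1e had 2.40, 1.93, 2.11 and 2.28 times the CPM of Serpina1b in ALAS1/2-KO and 4.71, 4.58 and 4.35 times in WT. Against the other 4 paralogs together it had 0.912, 0.668, 0.690 and 0.793 times their CPM in ALAS1/2-KO and 1.42, 1.42 and 1.39 times in WT. These shares and ratios do not depend on library size. They are descriptions, with no test over the paralogs.

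**Figure D2:**
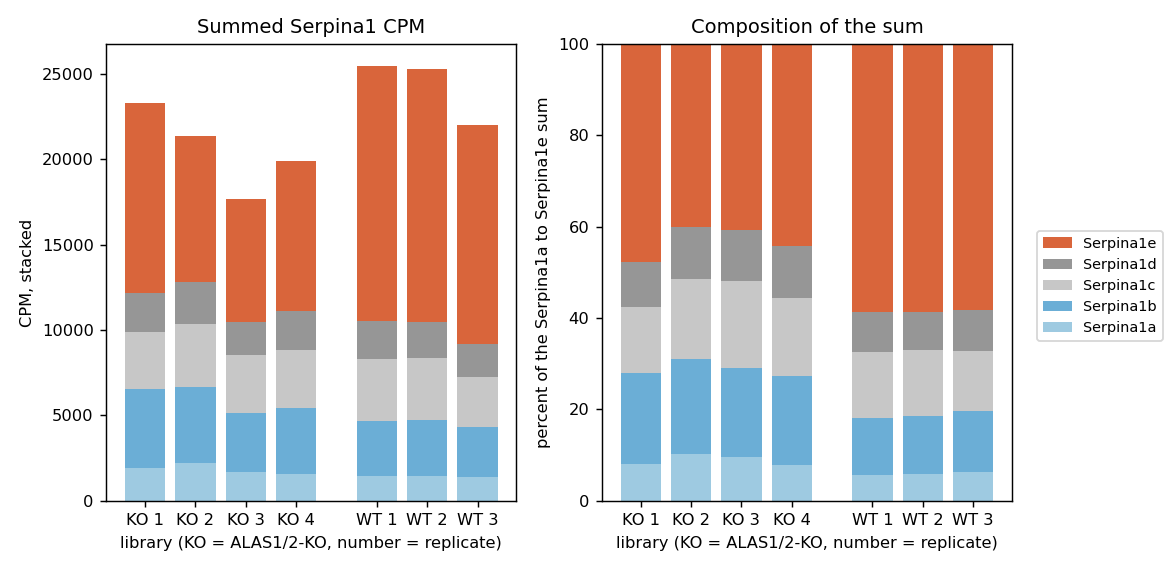
Left, CPM of the 5 Serpina1 paralogs stacked for each library (4 ALAS1/2-KO, labelled KO, and 3 WT), and right, the same as percent of their sum. Serpina1e, at the top of each bar, makes up 40.1 to 47.7% in ALAS1/2-KO and 58.2 to 58.8% in WT.

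Serpina3k, contrapsin, had the second highest level per kilobase of transcript among the 9. It stood at 8825, 7396, 7636 and 8903 CPM in ALAS1/2-KO and 9789, 8849 and 7624 CPM in WT, and the groups overlapped. The log2 fold change was -0.09, with a 95% interval of -0.40 to 0.21 (limma adjusted p = 0.706). Serpina3m stood at 444.3, 419.1, 434.9 and 487.8 CPM in ALAS1/2-KO and 436.8, 378.1 and 310.1 CPM in WT. It overlapped between the groups through WT replicate 1, with a log2 fold change of 0.26 and a 95% interval of -0.04 to 0.57 (limma adjusted p = 0.268). The coding sequences of both were 91.8% identical, and those of Serpina3k and the Serpina1 paralogs 58.1 to 59.2%. Serpina3k had 19.9, 17.7, 17.6 and 18.2 times the CPM of Serpina3m in ALAS1/2-KO and 22.4, 23.4 and 24.6 times in WT.

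Serpina10, whose product needs protein Z to inhibit factor Xa, had the lowest level per kilobase of the 9. It stood at 222.5, 206.2, 188.3 and 209.6 CPM in ALAS1/2-KO and 241.8, 215.6 and 156.8 CPM in WT. All 4 ALAS1/2-KO values lay inside the range of the 3 WT values. The log2 fold change was 0.03, with a 95% interval of -0.32 to 0.38 (limma adjusted p = 0.913).

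Per kilobase of annotated transcript, which allows genes to be compared, the order of the levels was the same in both groups for 7 of the 9 serpins. In ALAS1/2-KO the mean level was 5658 CPM per kb for Serpina1e, 3982 for Serpina3k, 2544 for Serpina1c, 2318 for Serpina1b, 1603 for Serpina1d, 1167 for Serpina1a, 465 for Serpina6, 269 for Serpina3m and 59.1 for Serpina10. In WT it was 9012 CPM per kb for Serpina1e, 4256 for Serpina3k, 2497 for Serpina1c, 1770 for Serpina1b, 1496 for Serpina1d, 914 for Serpina1a, 226 for Serpina3m, 208 for Serpina6 and 58.5 for Serpina10. Serpina6 and Serpina3m thus changed places, and in WT their libraries overlapped, the lowest Serpina3m value of 187 CPM per kb lying below the highest Serpina6 value of 227 CPM per kb. In ALAS1/2-KO the libraries of Serpina1c and Serpina1b overlapped in level per kb. All other neighbours in either order were separated in every library of the group. The fewest reads behind any value were 4632 for Serpina10 in 1 library, so counting error was small beside the spread between libraries.

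The deposited scaling bears on these results. The library sizes behind the deposited values were 1.069 to 1.184 times the listed reads in ALAS1/2-KO and 0.801 to 1.003 times in WT, while the share of mitochondrial reads was lower in ALAS1/2-KO, as given above. Rescaled to listed reads, the median log2 fold change of all genes moved to 0.32, and 20.9% of all genes were called higher. Under that scaling Serpina1a (log2 fold change 0.68), Serpina1b (0.72), Serpina1d (0.43), Serpina3m (0.60) and Serpina6 (1.49) were called higher, and Serpina1e at -0.35 was not called (limma adjusted p of 0.019, 0.0156, 0.0475, 0.015, 0.000611 and 0.157 in that order). Relative to that median of all genes, Serpina1a stood at 0.36, Serpina1b at 0.40, Serpina1d at 0.12, Serpina3m at 0.28, Serpina6 at 1.17 and Serpina1e at -0.67. Serpina3k changed sign to 0.24. Scaled without mitochondrial genes, Serpina6 was at 1.19 and Serpina1e at -0.65, and both were called (limma adjusted p = 0.0019 and 0.0359).

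**Figure D3:**
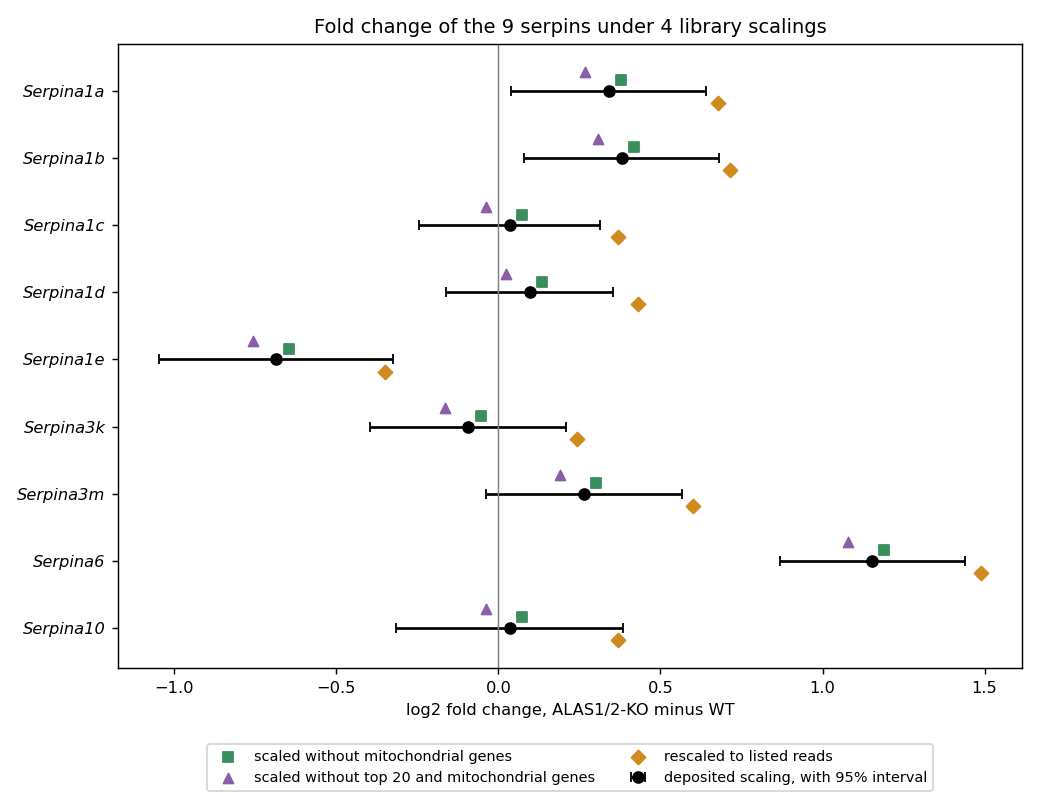
Log2 fold change (ALAS1/2-KO minus WT, x axis) of the 9 serpins with the deposited scaling (black, 95% interval from limma) and with 3 other library scalings. All 9 points move to the right by about the same amount when libraries are rescaled to listed reads. Serpina6 stays between 1.08 and 1.49 and Serpina1e between -0.76 and -0.35 in the 4 scalings shown.

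The genes most like each serpin were found as those with the smallest root mean square difference of centred log2 values over the 7 libraries, among 8550 other genes. Serpina1e lay nearest to Mug1 (difference 0.0758 on the log2 scale), a murinoglobulin that inhibits proteases by another mechanism, and to F11 (0.0884), coagulation factor XI. Since both were picked for their likeness to Serpina1e over the same 7 libraries, a like direction, and a like pattern when libraries are left out, follow from the choice and support nothing. Both fell in ALAS1/2-KO, with log2 fold changes of -0.73 for Mug1 and -0.64 for F11 (limma adjusted p = 0.0406 and 0.0436). Both kept their call without ALAS1/2-KO replicate 1 and lost it without any other single library (limma adjusted p of 0.0565 to 0.176 for Mug1 and 0.0659 to 0.187 for F11), and both were not called with CPM rescaled to listed reads (0.110 and 0.198). The nearest of the other 8 serpins to Serpina1e was Serpina3k, at 0.321. Serpina6 lay nearest to Ces1g (0.121), a carboxylesterase, and Slc44a3 (0.135), and the nearest serpin was Serpina1b at 0.398. For the other 7, the 2 nearest genes were Coq7 and Kdm1b for Serpina1a, Zfp874a and Tomm70a for Serpina1b, Tmem205 and Aprt for Serpina1c, Ppp1cc and Mst1 for Serpina1d, Bsg and Dhrs7b for Serpina3k, Abcf1 and Spg7 for Serpina3m, and Micos13 and Gucd1 for Serpina10. Serpina1a and Serpina1b lay 0.111 apart, and Serpina1c and Serpina1d 0.102 apart. Less related serpins lay about as near, with Serpina10 and Serpina1c 0.110 apart and Serpina3k and Serpina10 0.121 apart.

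Other clade A serpins did not pass the test. Of a list of 16, 7 were tested, 0 passed in either direction by limma, and 3 had an unadjusted limma p under 0.05. Without ALAS1/2-KO replicate 1 limma called 1 of them, with array weights 3 and with CPM rescaled to listed reads 1. Over all 12105 genes limma called 617 as deposited, 802 without ALAS1/2-KO replicate 1, 2001 with array weights and 2735 rescaled to listed reads. Without ALAS1/2-KO replicates 2, 3 and 4 in turn it called 379, 338 and 210. Without WT replicates 1, 2 and 3 in turn it called 231, 100 and 331. Counts in this list and in those below are to be read beside these totals. The median log2 fold change of the 7 was -1.01. Serpina3n, an acute phase serpin, had the highest CPM among them, at 715 ± 82.2 CPM in ALAS1/2-KO and 576 ± 196 CPM in WT (limma adjusted p = 0.344; log2 fold change 0.36 as deposited and 0.69, adjusted p = 0.0344, rescaled to listed reads). Serpina11 stood at 35.2 ± 4.4 CPM in ALAS1/2-KO and 43.4 ± 9.4 CPM in WT (limma adjusted p = 0.333). Serpina7, thyroxine-binding globulin and like Serpina6 a hormone carrier, stood at 8.74, 2.31, 5.32 and 8.35 CPM in ALAS1/2-KO and 12.3, 27.1 and 24.3 CPM in WT. Its log2 fold change of -1.86 did not pass (limma adjusted p = 0.0844), although its groups did not overlap; it was chosen for mention after its values were seen.

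Of the serpins of other clades, 13 of 24 were tested, 1 rose and 0 fell, with a median log2 fold change of 0.01. Limma called 4 of them with CPM rescaled to listed reads, 5 with array weights and 3 without ALAS1/2-KO replicate 1, but 0 without ALAS1/2-KO replicate 2, 3 or 4 or WT replicate 2 or 3. Over all genes it called 2735 rescaled to listed reads, 2001 with array weights and 802 without ALAS1/2-KO replicate 1. The gene that rose was Serpinc1, antithrombin, the main plasma inhibitor of thrombin and factor Xa. It stood at 2378, 2526, 2410 and 2566 CPM in ALAS1/2-KO and 1896, 1792 and 1780 CPM in WT, with no overlap. Its log2 fold change was 0.44 (SE 0.10, limma adjusted p = 0.0381), and the call was lost without any single library other than ALAS1/2-KO replicate 1 (limma adjusted p of 0.0751 to 0.173).

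Among the proteases that serpins act on and their cofactors, 13 of 17 were tested, 1 rose and 4 fell, with a median log2 fold change of -0.30. The count of calls ran from 0 without WT replicate 2 to 8 with array weights or with CPM rescaled to listed reads, and was 1 without WT replicate 1 and 2 without ALAS1/2-KO replicate 2, 3 or 4. F10, coagulation factor X, rose to 669 ± 37.3 CPM in ALAS1/2-KO, against 441 ± 12.9 CPM in WT (log2 fold change 0.60, limma adjusted p = 0.0157, and 0.0997 without WT replicate 2). Klkb1, plasma prekallikrein, fell to 152 ± 20.9 CPM in ALAS1/2-KO, against 254 ± 33.5 CPM in WT (log2 fold change -0.74, limma adjusted p = 0.0285, and 0.0567 to 0.138 without ALAS1/2-KO replicate 2 or 3 or WT replicate 1 or 2). Prtn3, proteinase 3 of neutrophils, fell to 7.06 ± 1.6 CPM in ALAS1/2-KO, against 29.8 ± 12 CPM in WT (log2 fold change -2.01, limma adjusted p = 0.0218, and 0.0556 to 0.0824 without ALAS1/2-KO replicate 4 or WT replicate 1 or 2). The 2 of 9 neutrophil markers that were listed, out of which 0 had a count of 0, summed to 1.42 to 4.55 CPM in ALAS1/2-KO and 4.42 to 10.1 CPM in WT, and their part in the Prtn3 result was not tested. The other 2 that fell were F11, given above, and Klk1. Klk1 stood at 0.09071 to 0.4889 CPM in ALAS1/2-KO libraries and at 1.259 to 1.866 CPM in WT libraries. It met the filter of 1 CPM in 3 libraries through WT alone, and a gene tested on that ground can only come out lower. The Klk1 call was kept without ALAS1/2-KO replicate 1 and lost without any other single library (limma adjusted p of 0.0536 to 0.194). Proz, protein Z, the cofactor of the Serpina10 product, stood at 619 ± 46.9 CPM in ALAS1/2-KO and 526 ± 19.6 CPM in WT and did not pass (limma adjusted p = 0.216).

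Protease inhibitors outside the serpins moved in both directions: of 23 genes on the list 19 were tested, 2 rose and 2 fell, with a median log2 fold change of -0.07. Without ALAS1/2-KO replicate 4 or WT replicate 2 limma called 1 of them, and without ALAS1/2-KO replicate 2 or 3 or WT replicate 3 it called 2. Mug2, a murinoglobulin, fell to 497 ± 80.8 CPM in ALAS1/2-KO, against 1220 ± 145 CPM in WT (log2 fold change -1.30, limma adjusted p = 0.0046), and Mug1 fell as given above. Pzp, the mouse alpha-2-macroglobulin, rose to 8714 ± 413 CPM, against 5994 ± 583 CPM in WT (log2 fold change 0.54, limma adjusted p = 0.0344). Kng1, kininogen, rose to 4325 ± 399 CPM, against 2610 ± 258 CPM in WT (log2 fold change 0.73, limma adjusted p = 0.0185). The Pzp call was lost without ALAS1/2-KO replicate 2, 3 or 4 or WT replicate 2 or 3 (adjusted p of 0.0651 to 0.166), and that of Kng1 without ALAS1/2-KO replicate 4 or WT replicate 2 (0.0513 and 0.110). Pzp, Mug1, Mug2 and Kng1 each have close copies that could share reads.

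Genes of glucocorticoid handling and response were set beside Serpina6, because its product carries these hormones. Of 15 tested, 1 rose and 0 fell, with a median log2 fold change of 0.25, and 12 of the 15 had a positive value. Limma called 4 with CPM rescaled to listed reads, 2 without ALAS1/2-KO replicate 1 and 0 without WT replicate 1 or 2. Over all genes these settings called 2735, 802, 231 and 100, in that order. Srd5a1, a steroid 5-alpha-reductase, rose to 54.6 ± 10.8 CPM in ALAS1/2-KO, against 27.3 ± 2.5 CPM in WT (log2 fold change 0.98, limma adjusted p = 0.018, and 0.0596 and 0.108 without WT replicate 1 or 2). Nr3c1, the glucocorticoid receptor, stood at 40.6 ± 3.0 CPM in ALAS1/2-KO and 42.5 ± 3.8 CPM in WT (limma adjusted p = 0.736). Of the receptor's target genes, Fkbp5 ranged from 31.6 to 120 CPM in ALAS1/2-KO and from 20.9 to 90.3 CPM in WT, and Tat from 651 to 935 CPM and from 289 to 1129 CPM, ALAS1/2-KO first. Mt1, a metallothionein, ranged from 298 to 362 CPM in ALAS1/2-KO and from 149 to 260 CPM in WT and did not pass (limma adjusted p = 0.119), and Tsc22d3 ranged from 53.3 to 76.2 CPM and from 28.3 to 72.9 CPM (limma adjusted p = 0.676). Nr3c1, Fkbp5, Tat, Mt1 and Tsc22d3 were chosen for mention after their values were seen.

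A list of 27 genes held transcription factors and cytokine receptors known to act on serpin genes or on other plasma protein genes in liver. It also held the kinase Jak2 and the signalling inhibitors Socs2, Socs3 and Cish. Of the 27, 1 rose and 5 fell, Socs2 among them, with a median log2 fold change of -0.19. With libraries left out, the count of calls ran from 1, without ALAS1/2-KO replicate 4, WT replicate 1 or WT replicate 3, to 10, without ALAS1/2-KO replicates 1 and 2 together, and was 2 without WT replicate 2 and 3 without ALAS1/2-KO replicate 3. The 3 with the smallest p all fell. Stat5a, a transcription factor downstream of growth hormone and other cytokines, stood at 9.65 ± 0.45 CPM in ALAS1/2-KO and 27.4 ± 8.0 CPM in WT (log2 fold change -1.46, limma adjusted p = 0.0046). Lifr, the leukemia inhibitory factor receptor, stood at 731 ± 172 CPM and 1460 ± 82.6 CPM (log2 fold change -1.03, limma adjusted p = 0.0218), and Socs2, a feedback inhibitor of growth hormone signalling, at 30.6 ± 8.9 CPM and 61.3 ± 6.6 CPM (log2 fold change -1.04, limma adjusted p = 0.0334), ALAS1/2-KO first. The Lifr call was lost without ALAS1/2-KO replicate 4 or any WT library (adjusted p of 0.0531 to 0.118), and the Socs2 call without ALAS1/2-KO replicate 2 or 4 or any WT library (0.0695 to 0.143). The others called were Foxa3, which rose, and Nr2f2 and Stat5b, which fell. Foxa3 was called without 2 of the 7 single libraries (ALAS1/2-KO replicate 1 and WT replicate 2), Nr2f2 without 2 (ALAS1/2-KO replicates 1 and 2) and Stat5b without 1 (ALAS1/2-KO replicate 2), with adjusted p of up to 0.142, 0.192 and 0.178 without the others.

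Among 22 cargo receptors and quality control genes of the endoplasmic reticulum, through which secreted serpins fold and leave the cell, limma called 0, and 2 had an unadjusted p under 0.05. Limma called 7 of them with CPM rescaled to listed reads, 2 with array weights and 1 scaled without mitochondrial genes. Over all 12105 genes these settings called 2735, 2001 and 650, and an unadjusted limma p under 0.05 was found for 23.7%. Their median log2 fold change was 0.13. The 2 most abundant were the chaperones Calr, at 759 ± 48.0 CPM in ALAS1/2-KO and 759 ± 62.0 CPM in WT, and Hspa5, at 675 ± 233 CPM and 562 ± 24.7 CPM. Hspa5 was at 1012 CPM in ALAS1/2-KO replicate 1 and at 507 to 650 CPM in the others of that group, and without that library its log2 fold change was -0.00422. Of 5 receptors that take up serpin complexes or plasma glycoproteins, limma called 0, and 1 had an unadjusted p under 0.05; 1 was called with CPM rescaled to listed reads, with array weights and without WT replicate 1. Lrp1, which clears serpin and protease complexes, stood at 663 ± 83.3 CPM in ALAS1/2-KO and 641 ± 61.1 CPM in WT, and Asgr1, a subunit of the asialoglycoprotein receptor, at 413 ± 13.3 CPM and 428 ± 62.7 CPM.

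Acute phase proteins and abundant plasma proteins show how the serpins stood among other secreted products. Of 21 acute phase genes tested, 0 rose and 1 fell, with a median log2 fold change of -0.30. WT replicate 1 differed from the other WT libraries in both directions among these genes. Saa1, a serum amyloid A gene, ranged from 79.6 to 203 CPM in ALAS1/2-KO and was at 3347, 245 and 99.6 CPM in WT replicates 1 to 3 (limma adjusted p = 0.348). Among WT libraries Hamp was lowest in replicate 1, at 39.0, 180 and 181 CPM in replicates 1 to 3. Fga was lowest there too, at 3520, 3871 and 4556 CPM, but replicates 2 and 3 lay further apart than replicates 1 and 2, so Fga does not set replicate 1 apart. Saa1, Hamp and Fga were chosen for mention after their values were seen. Limma called 3 of the genes without WT replicate 1, 3 with CPM rescaled to listed reads and 4 with array weights. Apcs, serum amyloid P, fell to 75.9 ± 15.8 CPM in ALAS1/2-KO, against 225 ± 64.9 CPM in WT (log2 fold change -1.55, limma adjusted p = 0.0108). Of 20 abundant plasma proteins 0 rose and 2 fell, with a median of 0.02. Limma called 11 of them with CPM rescaled to listed reads, 7 with array weights, 4 without ALAS1/2-KO replicate 1 and 1 without ALAS1/2-KO replicate 2 or 3 or WT replicate 1 or 2. Over all genes rescaling to listed reads gave 2735 calls, array weights 2001, leaving out ALAS1/2-KO replicate 1 802 and leaving out WT replicate 1 231. Alb fell to 53409 ± 2537 CPM, against 97897 ± 3431 CPM in WT (log2 fold change -0.87, limma adjusted p = 0.0061; 0.28 under quantile normalization, adjusted p = 0.377), and Apoh, beta-2-glycoprotein I, fell to 1330 ± 199 CPM, against 2201 ± 161 CPM in WT (log2 fold change -0.74, limma adjusted p = 0.0257). The Apoh call was lost without ALAS1/2-KO replicate 2 or 3 or WT replicate 1 or 2 (adjusted p of 0.0502 to 0.129). With CPM rescaled to listed reads, the calls of Klkb1, Socs2 and Apoh were lost (limma adjusted p = 0.0676, 0.0712 and 0.0704), as were those of Nr2f2 (0.142) and Stat5b (0.249). Serpina1e fell by less than albumin, so that per 1000 CPM of albumin it had 198, 158, 145 and 164 CPM in ALAS1/2-KO and 159, 148 and 128 CPM in WT, ranges that overlapped. Against Serpina3k it had 1.26, 1.15, 0.945 and 0.987 times the CPM in ALAS1/2-KO and 1.53, 1.68 and 1.68 times in WT.

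**Figure D4:**
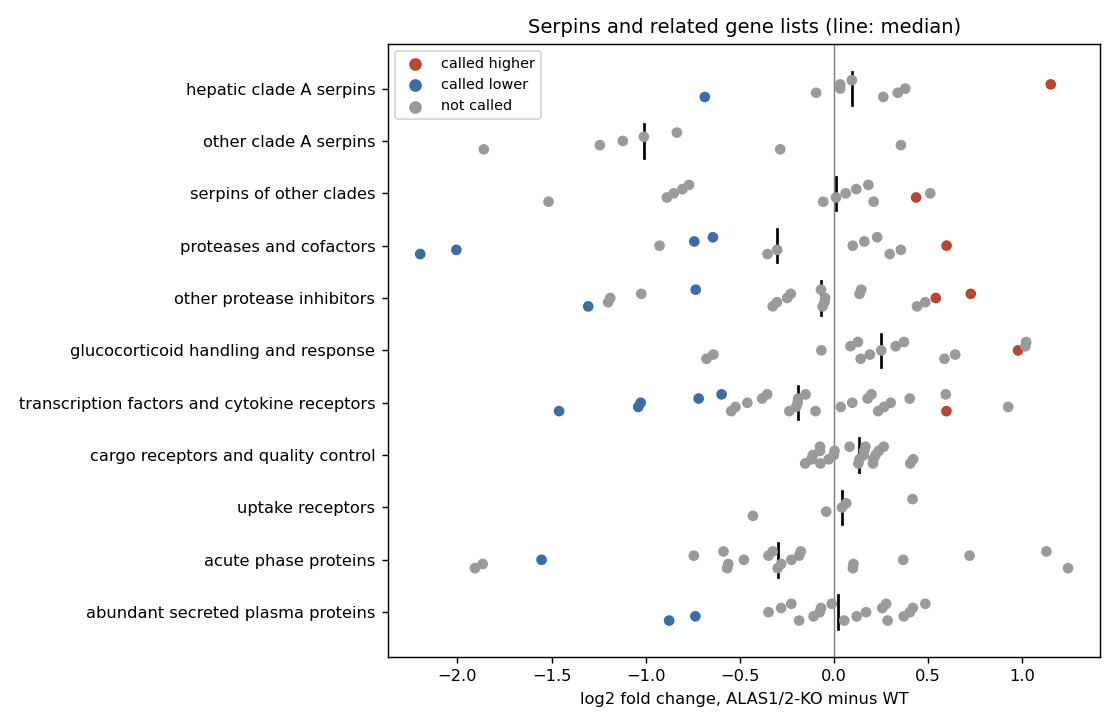
Log2 fold change (ALAS1/2-KO minus WT, x axis) of each tested gene in the serpins and in 10 related lists (points, red called higher, blue called lower by limma, grey not called; black lines are medians). The serpins show 1 red and 1 blue point around a median of 0.10, and 7 genes stand in more than 1 of the related lists.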

How the data were processed

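RNA from isolated mouse hepatocytes, 4 ALAS1/2-KO and 3 WT libraries, was taken up in Trizol, and 1 µg of total RNA per library went into the TruSeq kit, version 2, per the labels' protocols. Per the submitters' processing notes, cutadapt, HISAT2 and the build mm10 were used; their versions, the read counter, annotation, strand handling and the software of the final step are not named in those sources. The table was deposited as log2 values of CPM with a small prior. Subtracting the floor of 0.0676 CPM gave whole reads, within 0.01 reads, for 100% of values in 6 libraries and 99.99% in WT replicate 2, and thereby each library's listed reads, 22916097 to 34048680. Depth thus put 1 read at 0.0293 to 0.0522 CPM. CPM printed here are linear, with the floor removed.

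For genes reaching 1 CPM in 3 or more libraries, the deposited log2 values were fitted with limma 3.58.1 (R 4.3.3), with intensity trend and robust moderation. Two-sided p-values were adjusted by Benjamini-Hochberg over 12105 genes, and an adjusted p under 0.05 counted as called. The prior understates changes of low genes. Single genes also had an exact permutation test. The serpins, the lists and the alternatives were chosen with earlier results of these data known. From each list the text names the called genes of smallest p, up to 3, or, where 0 were called, the 2 of highest mean CPM, and others as stated. Sequences and coordinates came from GENCODE M21 and from RefSeq (GRCm38.p6).

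Alternatives were a pseudocount of 1, no filter, 4 other scalings (listed reads, without mitochondrial genes, without these and the 20 most abundant genes, quantiles), limma without trend, array weights, voom on the recovered reads, the replicate number as a block, and fits without each library or without ALAS1/2-KO replicates 1 and 2 together.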

Additional observations from a re-analysis of the deposited data

Results flagged for a closer look

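Serpina1c in ALAS1/2-KO replicate 2 stood at 3727 CPM, apart from the other 3 ALAS1/2-KO libraries at 3372 to 3377 CPM. The gap to the nearest of them was 0.986 of the range of the 4 libraries, above Dixon's 95% critical value for 4 samples. It was the single case among 35 genes, sums and shares examined in the 4 ALAS1/2-KO libraries, and chance flags about 1 in 20 such groups. Without this library the log2 fold change of Serpina1c was -0.00149.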

How the results depend on the processing

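Serpina6 kept its direction and its call in all 18 alternatives run. Serpina1e kept its direction in all 18 and lost its call under 4 settings and without 6 of the 7 single libraries. Rescaled to listed reads, 2735 genes and 5 of the 9 serpins were called, against 617 and 2 as deposited. Under that scaling Serpina1a (log2 fold change 0.68), Serpina1b (0.72), Serpina1d (0.43) and Serpina3m (0.60) passed, Serpina1e (-0.35) did not, and Serpina3k (0.24), Serpina11 (0.0505), Asgr1 (0.30) and the summed Serpina1 CPM (log2 ratio 0.10) changed sign. This scaling moves the median of all genes to 0.32, so the shift is common to most genes. Of the calls, 92.6% were higher under it, 40.5% when scaled without mitochondrial and the 20 most abundant genes, and 57.1% as deposited. Scaled without those genes, Serpina1c (-0.0383), Serpina10 (-0.0382), Calr (-0.072) and Lrp1 (-0.0287) changed sign. Under quantile normalization 1 serpin was called, Serpina1e stood at -0.57 (limma adjusted p = 0.0599), and Serpina1c (-0.0193), Serpina10 (-0.0738), Calr (-0.0924), Lrp1 (-0.0828) and Alb (0.28) changed sign. Limma without trend called 306 genes and 1 serpin, with Serpina1e at -0.69 (adjusted p = 0.0706). Array weights gave 2001 genes, with Serpina1c at -0.041, Serpina10 at -0.0748 and Calr at -0.0142, and voom put Calr at -0.000341. Without ALAS1/2-KO replicates 1 and 2 together 1130 genes were called, and Serpina1c (-0.00105), Serpina10 (-0.0197) and Calr (-0.0572) changed sign. Leaving out single libraries gave 100 (without WT replicate 2) to 802 called genes (without ALAS1/2-KO replicate 1) and 1 to 2 called serpins. The log2 fold changes then ranged from -0.80 to -0.59 for Serpina1e, -0.0795 to 0.0918 for Serpina1c, -0.15 to 0.17 for Serpina10, -0.0424 to 0.067 for Calr, -0.00422 to 0.33 for Hspa5, -0.0153 to 0.12 for Lrp1 and -0.17 to 0.0349 for Asgr1. None of the results that changed sign passed the threshold as deposited, Alb excepted. With the replicate number as a block, 72 genes and 1 serpin were called and Serpina1e stood at -0.68 (limma adjusted p = 0.12). The correlation of deviations of same-numbered libraries was -0.03, 0.05 and 0.18, so the numbers are not shown to pair libraries. Apart from the shift named, the cause of these changes was not tested.

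Genes that did not reach 0.5 CPM in 3 libraries were not analysed here, and 7 libraries limit what the test can pass. Values of single Serpina1 paralogs rest in part on sequence that the paralogs share.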
